A study of Mus musculus with 40 samples.

Results

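The 41 genes described here make up the fatty acid oxidation programme of the heart and the machinery that controls it. They were chosen by name, from the carnitine shuttle, the beta-oxidation spiral, the enzymes for unsaturated acyl chains, electron transfer, fatty acid uptake and activation, the nuclear receptors and coactivators of the programme, and other targets of the PPAR receptors. All 41 have a row in both deposited tables, which list 17646 genes for male and 17223 for female hearts, and all 41 passed the filter on low values in each sex. The libraries are polyadenylated RNA of mouse tissue labelled as heart and described in the study's text as left ventricle, with 4 animals planned for each time and sex. CM-Il11-Tg mice carry a *Rosa26-Il11* transgene and an α-MHC-MerCreMer (MCM) transgene, so that tamoxifen switches on murine *Il11* in cardiomyocytes alone. Mice aged 8 weeks received tamoxifen (20 mg/kg) on 5 days, and hearts were taken 1, 3 and 6 weeks later. Controls received tamoxifen and are wild type for *Rosa26-Il11*. In the study's methods they too are heterozygous for MCM, so every group carries the Cre, and their labels give 1 baseline group per sex rather than a group matched to each week. A further group of CM-Il11-Tg mice was given no tamoxifen (uninduced) and so differs from control in both the transgene and the drug. Each group holds 4 libraries, except 3 male controls and 3 male hearts at 6 weeks, because the labels of 2 male libraries contradict each other (control in one place, 6 weeks in another) and both were left out. Values are listed in replicate order, and the male controls and male hearts at 6 weeks are replicates 1, 3 and 4.

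Long-chain fatty acids are the main fuel of the adult heart. They are taken up by the cardiomyocyte, activated to acyl-CoA, carried into mitochondria as carnitine esters and shortened in repeated cycles of beta-oxidation, which hand electrons to the respiratory chain. PPARα (*Ppara*), with its partner RXRα, binds genes of each of these steps and is itself activated by fatty acids, and PGC-1α (*Ppargc1a*) and the estrogen-related receptors act on many of the same genes.

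*Il11* followed the labels in every library used. It read 0 to 0.166 CPM in the 7 controls, 15.5 to 49.1 CPM in the 8 uninduced hearts and 328 to 819 CPM in the induced hearts. Libraries held between 16663513 and 65333832 reads in males and between 19147947 and 30929192 in females. The 14 cardiomyocyte markers checked were detected throughout, summing to 47179 to 75538 CPM in controls of both sexes and to 39691 to 67558 CPM in induced hearts. In uninduced females, markers of macrophages were also higher than in control (9 of 10 markers called).

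Many genes of the programme were lower on the deposited scale once *Il11* had been induced. At 1, 3 and 6 weeks, 23, 17 and 20 of the 41 genes had fallen in male hearts and 28, 33 and 28 in female hearts (limma on log2(CPM + 0.5), Benjamini-Hochberg adjusted p under 0.05 over all genes tested). The median log2 fold change of the 41 was -0.53, -0.40 and -0.44 in males and -0.62, -0.58 and -0.59 in females, where the median over all tested genes lay between -0.02 and 0.02. Over all genes, 14.6%, 8.1% and 10.9% were called lower in males and 13.1%, 14.5% and 21% in females. Rises were few among the 41. In males 1, 1 and 2 genes rose, beside 18.9%, 13.2% and 16.2% of all genes. In females 1, 0 and 1 rose, beside 15.3%, 16.8% and 21.7% of all genes. At 3 weeks limma, edgeR and DESeq2 each called none of the 41 higher in females as deposited. In either direction, 35 of the 41 and 6972 of all 16956 genes had an unadjusted p under 0.05 in limma there. Large falls were rarer. Counting only changes of 1 or more on the log2 scale, 4, 0 and 1 of the 41 were lower in males, beside 1.95%, 1.18% and 1.52% of all genes, and 2, 7 and 4 in females, beside 1.53%, 1.56% and 3.85%. At 3 weeks in males none of the 41 fell by that much. There 27 of the 41 and 5515 of all 16931 genes had an unadjusted p under 0.05 in limma. Without the size limit edgeR and DESeq2 called 18 and 22 of the 41 in either direction.

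**Figure D1:**
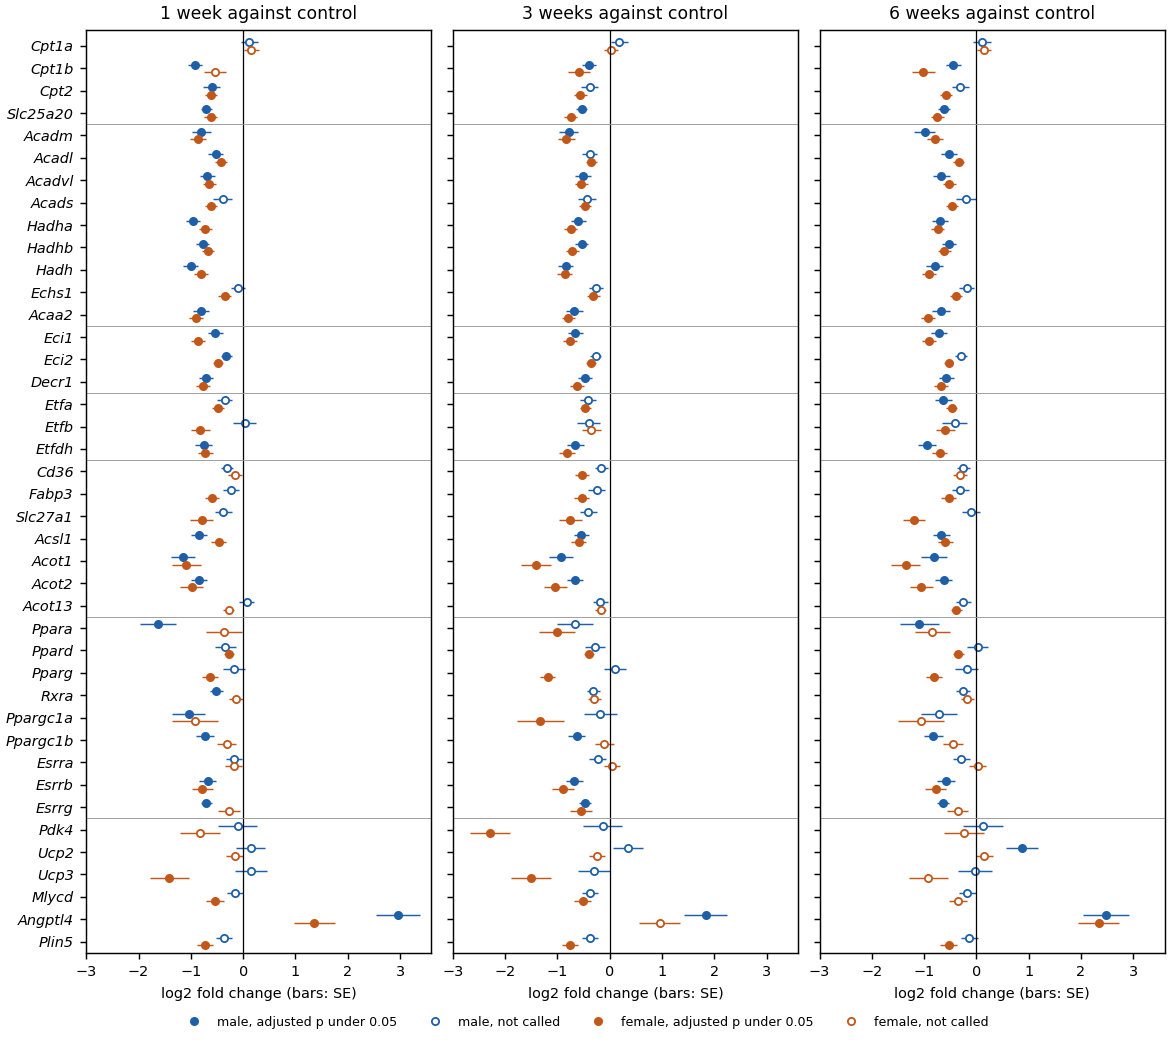
Log2 fold change against control of each of the 41 genes (horizontal axis, log2 scale, with bars for the SE) at 1, 3 and 6 weeks after tamoxifen, in males (blue) and females (orange), in order of role from the carnitine shuttle at the top to other PPAR targets at the bottom. Filled points passed an adjusted p under 0.05; most filled points lie left of 0 on the deposited scale, and *Angptl4* lies far to the right. Of the 41 genes, 24 change sign in at least 1 comparison when the libraries are scaled in another way.

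How far the programme fell depended on the scale. The deposited columns sum to more in controls (1063760 to 1196280) than in hearts at 1 week (817395 to 955425). Male hearts at 6 weeks ran from 906746 to 1165100, which overlaps with the controls. Scaling each library to its total reads, an alternative added after the data were seen, put the median log2 fold change of all genes against control at 0.16 to 0.33. Scaling to the cardiomyocyte markers put it at 0.19 to 0.37. On the first of these scales 10, 3 and 8 of the 41 genes were called lower in males and 15, 15 and 11 in females. Of all genes, 3.82%, 2.33% and 3.51% were lower on it in males and 3.44%, 3.55% and 6.16% in females. On the second, 17, 3 and 2 of the 41 were lower in males and 6, 16 and 7 in females. Beside these, 5.29%, 1.89% and 2.03% of all genes were lower in males and 2.16%, 3.23% and 5.01% in females. A scaling moves all genes of a library alike, so the median of the 41 minus that of all genes (-0.55 to -0.37 in males and -0.59 to -0.52 in females over 4 scales) could hardly change with it and is no check of the fall. In all, 15 of the genes had a log2 fold change below 0 in all 6 comparisons on all 4 scales: *Cpt1b*, *Slc25a20*, *Acadm*, *Acadvl*, *Hadha*, *Hadhb*, *Hadh*, *Acaa2*, *Eci1*, *Decr1*, *Etfdh*, *Acsl1*, *Acot1*, *Acot2* and *Esrrb*. All of these but *Cpt1b* were also called lower in all 6 comparisons on the deposited scale. In bulk tissue, fewer cardiomyocytes and less RNA per cardiomyocyte cannot be told apart. Beside these falls, the cardiomyocyte markers had medians of -0.15, -0.36 and -0.37 in males and -0.38, -0.28 and -0.41 in females, with 3 to 8 of 14 called lower. These markers did not move together. In males at 1 week 1 was called higher, and single values against control ran from -1.24 to 0.60 over both sexes. Macrophage markers were higher (9 of 10 called in males and 10 of 10 in females at each week), their sum going from 207 to 375 CPM in controls to 831 to 1299 CPM in induced hearts, and 7 to 9 of 9 fibroblast markers were higher. The part of these cell types in the falls was not tested.

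**Figure D2:**
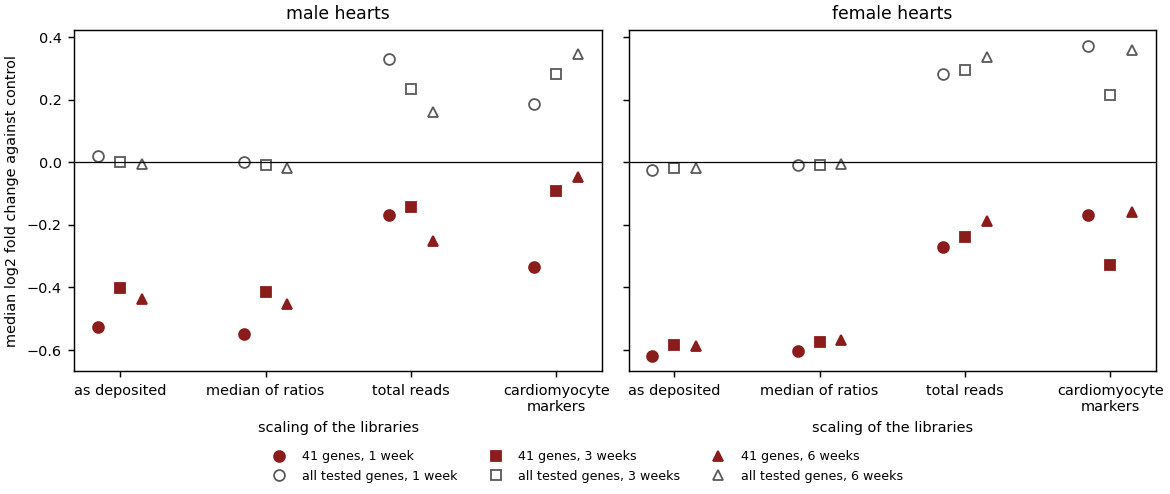
Median log2 fold change against control (vertical axis) of the 41 genes (filled) and of all tested genes (open) at 1, 3 and 6 weeks, for 4 ways of scaling the libraries (horizontal axis), with males left and females right. The medians of the 41 genes lie below 0 on each scale, from -0.62 to -0.05, and both sets move up together under total-read and cardiomyocyte-marker scaling.

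The carnitine shuttle moves acyl groups across the inner mitochondrial membrane. Its 4 genes did not move together. *Slc25a20*, the carrier that exchanges acylcarnitine for carnitine, was lower in all 6 comparisons, with log2 fold changes from -0.75 to -0.54. *Cpt2*, the inner-membrane transferase, was lower in 4 of 6 (from -0.62 to -0.30), and its value rose above 0 on another scale in at least 1 comparison. *Cpt1a*, the liver form of the outer-membrane transferase, was called in none of the 6, with values from 0.02 to 0.19.

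*Cpt1b* (ENSMUSG00000078937, chr15:89300606-89310239 on the minus strand) encodes the muscle form of that transferase, the step that malonyl-CoA inhibits. In male hearts it read 21.2, 25.3 and 17.1 CPM in controls, 15.7, 20.1, 15.3 and 18.04 CPM in uninduced hearts, 11.05, 10.3, 10.8 and 11.3 CPM at 1 week, 16.2, 16.1, 15.02 and 15.6 CPM at 3 weeks, and 13.4, 15.2 and 17.7 CPM at 6 weeks. All 4 male libraries at 1 week lay below every control and every uninduced heart. The male log2 fold changes against control were -0.92 at 1 week (SE 0.13, adjusted p = 3.0e-05), -0.40 at 3 weeks (SE 0.13, adjusted p = 0.034) and -0.44 at 6 weeks (SE 0.14, adjusted p = 0.026). Female *Cpt1b* read 20.5, 18.5, 22.3 and 17.4 CPM in controls, 16.2, 20.4, 10.6 and 12.7 CPM in uninduced hearts, 17.002, 9.19, 15.7 and 12.9 CPM at 1 week, 13.4, 12.9, 11.6 and 13.7 CPM at 3 weeks, and 15.3, 7.47, 9.55 and 7.24 CPM at 6 weeks. Each induced female library lay below the lowest control, but 3 of the 4 uninduced hearts did so too. Against control the female hearts showed changes in *Cpt1b* of -0.54 at 1 week (SE 0.21, adjusted p = 0.067), -0.58 at 3 weeks (SE 0.21, adjusted p = 0.042) and -1.01 at 6 weeks (SE 0.21, adjusted p = 0.00078). In the annotation 68.5% of its exon bases are shared, on the same strand, with the read-through gene *Gm44502*, so counting can have left out or split its reads, and the level is uncertain. Its calls at 3 weeks in both sexes and at 6 weeks in males were lost when any of several single libraries was left out.

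The promoters of the 41 genes were searched because the set is named in part for PPAR targets. In the window from 250 bases before to 50 after the start of each gene's canonical transcript on GRCm39, the PPAR element AGGTCANAGGTCA (a direct repeat with a 1-base spacer, both strands, up to 2 mismatches in its fixed letters) was found in 3 of the 41 (7.32%), beside 418 of 13918 promoters of protein-coding genes (3%). The estrogen-related receptor site TCAAGGTCA, whose last 6 letters are the same half-site, was found in 0 of 41 and 0.366% of all, and the STAT site TTCCNGGAA in 0 of 41 and 1.32% of all. A match is only these letters in this window. The 3 matches are shown in capitals, in *Cpt1b* and *Echs1* within the 250 bases before the start and in *Ucp3*, where the match begins 12 bases into the transcript, with 8 bases on either side. The match of *Cpt1b* begins 87 bases before the start and reads on the opposite strand, and that of *Echs1* begins 28 bases before it. Other annotated transcripts of *Cpt1b* and *Echs1* start further upstream, and the *Echs1* match lies inside the longest of them.
Cpt1b, chr15:89310226-89310475: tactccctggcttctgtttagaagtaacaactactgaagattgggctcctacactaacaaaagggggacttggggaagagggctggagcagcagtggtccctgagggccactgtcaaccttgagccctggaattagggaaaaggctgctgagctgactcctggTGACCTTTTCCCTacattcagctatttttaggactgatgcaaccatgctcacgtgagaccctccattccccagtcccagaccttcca
Echs1, chr7:139696390-139696639: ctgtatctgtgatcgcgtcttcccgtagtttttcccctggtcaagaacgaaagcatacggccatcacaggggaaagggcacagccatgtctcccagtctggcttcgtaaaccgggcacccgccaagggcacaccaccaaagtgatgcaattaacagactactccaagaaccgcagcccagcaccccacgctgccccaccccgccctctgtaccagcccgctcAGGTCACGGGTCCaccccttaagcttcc
Ucp3, chr7:100122139-100122167: tcagaattAGGTTTCAGGTCAgctggtgc
All 3 are printed 5′ to 3′ on the strand of the gene, which is minus for *Cpt1b* and *Echs1* and plus for *Ucp3*. The genes that hold them did not behave alike. *Cpt1b* was lower in 5 of 6 comparisons, *Echs1* in 3 and *Ucp3* in 2.

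Genes of the beta-oxidation spiral were lower in both sexes on the deposited scale. In females all 9 of its genes were lower at each week (median log2 fold changes -0.67, -0.71 and -0.61), although *Acadl* and *Echs1* turned above 0 at 6 weeks under cardiomyocyte-marker and total-read scaling, both at 1 week under the first and *Echs1* at 3 weeks under the second. In males 7, 6 and 7 of the 9 were lower (medians -0.77, -0.54 and -0.67). The shares of all genes lower were 13.1%, 14.5% and 21% in females and 14.6%, 8.1% and 10.9% in males. The acyl-CoA dehydrogenases open each cycle for chains of a given length, and the long-chain enzymes *Acadvl* (from -0.68 to -0.51) and *Acadl* (from -0.53 to -0.34) fell in 6 and 5 comparisons. *Acads*, for short chains, was lower in all 3 female comparisons (-0.62, -0.47 and -0.46) and had values of -0.39, -0.44 and -0.20 in males, none of them called.

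*Acadm* (ENSMUSG00000062908, chr3:153627989-153650317 on the minus strand) encodes the medium-chain dehydrogenase. In male hearts *Acadm* read 834, 941 and 767 CPM in controls, 665, 874, 902 and 856 CPM in uninduced hearts, 364, 511, 502 and 593 CPM at 1 week, 504, 457, 515 and 491 CPM at 3 weeks, and 522, 496 and 296 CPM at 6 weeks. Every induced male library lay below all controls and all uninduced hearts, and the 6-week library of replicate 4 was the lowest of all. The male log2 fold changes of *Acadm* were -0.80 at 1 week (SE 0.18, adjusted p = 0.0023), -0.78 at 3 weeks (SE 0.18, adjusted p = 0.0038) and -0.99 at 6 weeks (SE 0.20, adjusted p = 0.00079). Female *Acadm* read 855, 801, 745 and 727 CPM in controls, 602, 638, 480.3 and 934 CPM in uninduced hearts, 418, 454, 439 and 405 CPM at 1 week, 456, 453, 412 and 438 CPM at 3 weeks, and 420.2, 403, 400.1 and 614 CPM at 6 weeks. The induced females again lay below every control, while uninduced hearts ran from 480 to 934 CPM, and 6-week replicate 4 (613.6 CPM) lay among them. The female values were -0.86 at 1 week (SE 0.15, adjusted p = 0.00024), -0.83 at 3 weeks (SE 0.15, adjusted p = 0.00032) and -0.79 at 6 weeks (SE 0.15, adjusted p = 0.00039).

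*Hadha* (ENSMUSG00000025745, chr5:30323302-30360187 on the minus strand) and *Hadhb* encode the alpha and beta chains of the mitochondrial trifunctional protein, which carries out the last 3 steps of the cycle on long chains. In males *Hadha* read 1119, 1331 and 1109 CPM in controls, 916, 1175, 1004 and 1118 CPM in uninduced hearts, 503, 715, 674 and 568 CPM at 1 week, 827, 677, 778 and 848 CPM at 3 weeks, and 782, 724 and 689 CPM at 6 weeks. Female *Hadha* read 1165, 1119, 1085 and 1000 CPM in controls, 873, 903, 742 and 1274 CPM in uninduced hearts, 657, 724, 664 and 596 CPM at 1 week, 685, 638, 622 and 663 CPM at 3 weeks, and 637, 608, 641 and 733 CPM at 6 weeks. In both sexes all induced libraries lay below all control and all uninduced libraries. Log2 fold changes of *Hadha* in males were -0.96 at 1 week (SE 0.14, adjusted p = 3.6e-05), -0.60 at 3 weeks (SE 0.14, adjusted p = 0.0036) and -0.69 at 6 weeks (SE 0.15, adjusted p = 0.0017). In females they were -0.73 at 1 week (SE 0.12, adjusted p = 0.00015), -0.74 at 3 weeks (SE 0.12, adjusted p = 1.0e-04) and -0.74 at 6 weeks (SE 0.12, adjusted p = 7.6e-05). *Hadhb* (from -0.77 to -0.53) was called lower in all 6 comparisons as well. Exons of the pair overlap by 932 bases on opposite strands, and whether the counting used strand is not given in the sources used here.

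*Hadh* (ENSMUSG00000027984, chr3:131027068-131065750 on the minus strand) encodes the dehydrogenase for medium and short 3-hydroxyacyl-CoA. Male *Hadh* read 416, 489 and 424 CPM in controls, 324, 435, 405 and 400.0 CPM in uninduced hearts, 166, 245, 241 and 241 CPM at 1 week, 259, 219, 242 and 266 CPM at 3 weeks, and 223, 237 and 309 CPM at 6 weeks. At each week the induced males lay below every control and every uninduced heart, with replicate 1 at 1 week far below its group. Against control the male hearts showed changes in *Hadh* of -1.003 at 1 week (SE 0.15, adjusted p = 4.4e-05), -0.85 at 3 weeks (SE 0.15, adjusted p = 0.00031) and -0.80 at 6 weeks (SE 0.16, adjusted p = 0.00084). In females it read 438, 402, 436 and 392 CPM in controls, 305, 313, 236 and 448 CPM in uninduced hearts, 235, 259, 229.9 and 228 CPM at 1 week, 227, 230.4, 233 and 225 CPM at 3 weeks, and 202, 212, 198 and 284 CPM at 6 weeks. All induced females lay below the controls, and uninduced replicate 3 (236 CPM) lay among them. The female log2 fold changes of *Hadh* were -0.81 at 1 week (SE 0.14, adjusted p = 0.00017), -0.86 at 3 weeks (SE 0.14, adjusted p = 7.0e-05) and -0.91 at 6 weeks (SE 0.14, adjusted p = 2.8e-05). *Hadh* was the single member still called lower in all 6 comparisons under total-read scaling, and under cardiomyocyte-marker scaling no member was called in all 6.

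*Acaa2* (ENSMUSG00000036880, chr18:74911948-74953492 on the plus strand), the thiolase that releases acetyl-CoA, closed the cycle with falls of like size. Male *Acaa2* read 567, 618 and 552 CPM in controls, 451, 632, 598 and 553 CPM in uninduced hearts, 235, 411, 359 and 344 CPM at 1 week, 407, 316, 345 and 384 CPM at 3 weeks, and 399.5, 353 and 333 CPM at 6 weeks. Induced males lay below all controls and all uninduced hearts. In males the log2 fold changes of *Acaa2* were -0.81 at 1 week (SE 0.16, adjusted p = 0.00073), -0.68 at 3 weeks (SE 0.16, adjusted p = 0.0041) and -0.68 at 6 weeks (SE 0.17, adjusted p = 0.0057). In females *Acaa2* read 715, 622, 638 and 644 CPM in controls, 504, 505, 455 and 691 CPM in uninduced hearts, 354, 359, 343 and 336 CPM at 1 week, 379.9, 379, 373 and 380.1 CPM at 3 weeks, and 372, 284, 286 and 455 CPM at 6 weeks. Replicate 4 at 6 weeks (455 CPM) reached the lowest uninduced heart, and the other induced females lay below both reference groups. The corresponding female values of *Acaa2* were -0.91 at 1 week (SE 0.13, adjusted p = 2.5e-05), -0.79 at 3 weeks (SE 0.13, adjusted p = 0.00011) and -0.93 at 6 weeks (SE 0.13, adjusted p = 1.1e-05). *Echs1*, the hydratase of short chains, moved least of the 9, with male values from -0.26 to -0.10 that were not called and female values from -0.39 to -0.31 that were.

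Enzymes for unsaturated chains shift or remove double bonds so that the cycle can go on. All 3 were lower in females at each week, beside 13.1%, 14.5% and 21% of all genes. In males all 3 were lower at 1 week and 2 at 3 and 6 weeks, beside 14.6%, 8.1% and 10.9%. *Decr1*, the dienoyl-CoA reductase, was lower in all 6 (from -0.77 to -0.48). *Eci2* was lower in 4 of 6 (from -0.53 to -0.27), and at 1 week in males its value was 0.03 under total-read scaling.

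*Eci1* (ENSMUSG00000024132, chr17:24645606-24658535 on the plus strand) encodes the main mitochondrial enoyl-CoA isomerase. Its male levels were 189, 181 and 167 CPM in controls, 159.8, 199, 212 and 183 CPM in uninduced hearts, 90.95, 136, 121 and 152 CPM at 1 week, 128, 103, 111 and 110.4 CPM at 3 weeks, and 113, 114 and 98.8 CPM at 6 weeks. All induced males lay below all controls and all uninduced hearts. For *Eci1* in males, log2 fold changes against control were -0.54 at 1 week (SE 0.14, adjusted p = 0.0069), -0.66 at 3 weeks (SE 0.14, adjusted p = 0.002) and -0.72 at 6 weeks (SE 0.15, adjusted p = 0.0014). Its female levels were 217, 196, 189 and 189.5 CPM in controls, 154, 156, 129 and 210.4 CPM in uninduced hearts, 108, 109, 105 and 114 CPM at 1 week, 107, 122, 124 and 115 CPM at 3 weeks, and 107, 94.3, 86.9 and 141 CPM at 6 weeks. Induced females lay below every control, and 1 of them, replicate 4 at 6 weeks, lay within the uninduced range. The female log2 fold changes of *Eci1* were -0.86 at 1 week (SE 0.13, adjusted p = 5.4e-05), -0.76 at 3 weeks (SE 0.13, adjusted p = 0.00017) and -0.90 at 6 weeks (SE 0.13, adjusted p = 1.8e-05).

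Electron transfer flavoprotein (*Etfa*, *Etfb*) and its dehydrogenase (*Etfdh*) carry electrons from the acyl-CoA dehydrogenases to ubiquinone. *Etfdh* (ENSMUSG00000027809, chr3:79511086-79536807 on the minus strand) was lower in all 6 comparisons. Male *Etfdh* read 484, 529.9 and 485 CPM in controls, 403, 531, 536 and 512 CPM in uninduced hearts, 227, 294, 311 and 369 CPM at 1 week, 306, 276, 343 and 342 CPM at 3 weeks, and 303, 290.2 and 199 CPM at 6 weeks. Induced males lay below both reference groups, with replicate 4 at 6 weeks the lowest. In males the log2 fold changes of *Etfdh* were -0.75 at 1 week (SE 0.16, adjusted p = 0.0015), -0.66 at 3 weeks (SE 0.16, adjusted p = 0.0057) and -0.94 at 6 weeks (SE 0.17, adjusted p = 0.00045). In females *Etfdh* read 495, 427, 495 and 434 CPM in controls, 362, 409, 279 and 552 CPM in uninduced hearts, 272, 302, 276 and 271 CPM at 1 week, 278, 261, 247 and 264 CPM at 3 weeks, and 267, 250.2, 270.1 and 361 CPM at 6 weeks. No induced female library reached the controls, whereas uninduced replicate 3 (279 CPM) lay among the hearts at 1 and 6 weeks. For *Etfdh* in females, log2 fold changes against control were -0.72 at 1 week (SE 0.15, adjusted p = 0.00091), -0.82 at 3 weeks (SE 0.15, adjusted p = 0.00024) and -0.70 at 6 weeks (SE 0.15, adjusted p = 0.00078). *Etfa* was lower in 4 comparisons (from -0.63 to -0.36) and *Etfb* in 2 (from -0.82 to 0.03). *Etfb* shares 39.6% of its exon bases on the same strand with *Etfbl*, so its level is uncertain.

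Uptake and activation genes fell less evenly. *Acsl1*, the main acyl-CoA synthetase of the heart, was lower in all 6 comparisons (from -0.84 to -0.47). *Fabp3*, the fatty acid binding protein of heart muscle, was lower in all 3 female comparisons (-0.59, -0.54 and -0.53) and not called in males (-0.23, -0.25 and -0.31). *Slc27a1*, a fatty acid transporter, showed -0.80, -0.75 and -1.19 in females, all called, and -0.38, -0.42 and -0.10 in males. *Cd36*, the main fatty acid translocase at the cell surface, was called lower at 3 weeks in females (-0.54) and in none of the other 5 comparisons, where it lay between -0.31 and -0.16. *Acot13* was called lower at 6 weeks in females (-0.39), a value that became 0.04 under cardiomyocyte-marker scaling and 0.01 under total-read scaling. Of its exon bases 54.4% lie opposite *BC005537*, and of those of *Fabp3* 37.0% lie opposite *Zcchc17*, so their reads cannot be told apart if the counting ignored strand. The same holds for *Acadvl* (38.2%, *Dvl2*), *Ppara* (27.4%, *Cdpf1*) and *Esrra* (29.6%, *Trmt112*).

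The acyl-CoA thioesterases *Acot1* (ENSMUSG00000072949, chr12:84056256-84065145 on the plus strand) and *Acot2* (ENSMUSG00000021226, chr12:84034428-84040647 on the plus strand), which release free fatty acids from acyl-CoA in the cytosol and in mitochondria, were among the 3 genes with the largest mean fall of those called lower in all 6 comparisons. They are neighbours and close paralogs, so reads may have been split between them. In male hearts *Acot1* read 25.4, 25.3 and 19.9 CPM in controls, 16.3, 30.4, 27.99 and 23.5 CPM in uninduced hearts, 6.93, 10.6, 10.6 and 14.1 CPM at 1 week, 14.7, 9.38, 12.1 and 12.4 CPM at 3 weeks, and 16.9, 9.64 and 13.7 CPM at 6 weeks. Induced males lay below every control at each week, with 1 heart at 6 weeks inside the uninduced range. The male log2 fold changes of *Acot1* were -1.15 at 1 week (SE 0.23, adjusted p = 0.00078), -0.94 at 3 weeks (SE 0.23, adjusted p = 0.0057) and -0.81 at 6 weeks (SE 0.25, adjusted p = 0.019). In females *Acot1* read 31.2, 18.9, 29.1 and 24.8 CPM in controls, 19.7, 22.4, 9.08 and 23.3 CPM in uninduced hearts, 8.11, 14.5, 11.9 and 13.6 CPM at 1 week, 11.7, 9.04, 8.10 and 8.73 CPM at 3 weeks, and 11.2, 6.10, 7.69 and 16.6 CPM at 6 weeks. The uninduced female of replicate 3 (9.08 CPM) lay within the induced range. Against control the female hearts showed changes in *Acot1* of -1.09 at 1 week (SE 0.28, adjusted p = 0.0063), -1.41 at 3 weeks (SE 0.28, adjusted p = 0.00066) and -1.35 at 6 weeks (SE 0.28, adjusted p = 0.00071). Without control replicate 1, control replicate 3 or 6-week replicate 3, the male 6-week call of *Acot1* was lost.

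In male hearts *Acot2* read 79.6, 87.6 and 68.95 CPM in controls, 63.7, 101, 82.8 and 80.1 CPM in uninduced hearts, 34.6, 43.3, 44.4 and 52.9 CPM at 1 week, 56.1, 43.9, 49.2 and 49.1 CPM at 3 weeks, and 54.6, 42.2 and 56.1 CPM at 6 weeks. Induced males lay below all control and uninduced libraries. Against control the male hearts showed changes in *Acot2* of -0.85 at 1 week (SE 0.16, adjusted p = 0.00037), -0.66 at 3 weeks (SE 0.16, adjusted p = 0.0041) and -0.63 at 6 weeks (SE 0.17, adjusted p = 0.0085). In females *Acot2* read 104, 68.96, 99.9 and 77.4 CPM in controls, 65.1, 72.98, 39.8 and 73.4 CPM in uninduced hearts, 35.3, 44.8, 45.9 and 48.2 CPM at 1 week, 44.5, 41.6, 40.2 and 40.8 CPM at 3 weeks, and 45.3, 26.4, 37.97 and 64.3 CPM at 6 weeks. All induced females lay below the controls, and uninduced replicate 3 (39.8 CPM) lay among them. The corresponding female values of *Acot2* were -0.99 at 1 week (SE 0.21, adjusted p = 0.0015), -1.04 at 3 weeks (SE 0.21, adjusted p = 0.00085) and -1.05 at 6 weeks (SE 0.21, adjusted p = 0.00056).

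**Figure D3:**
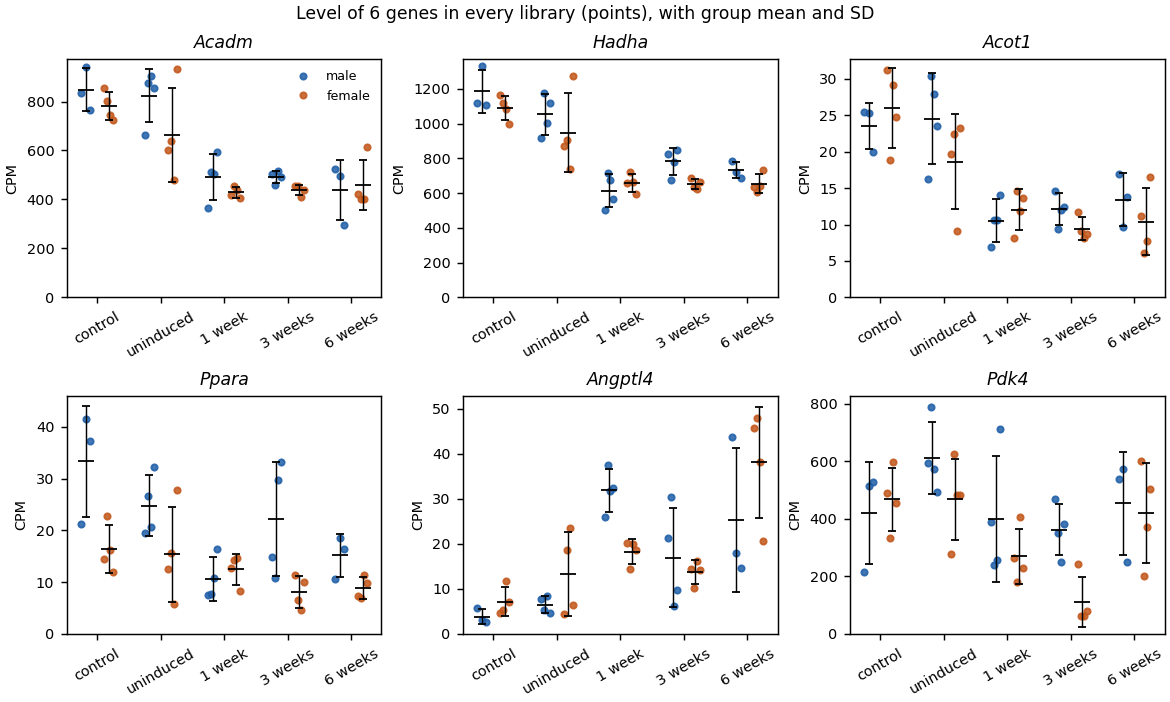
CPM (vertical axis, starting at 0) of *Acadm*, *Hadha*, *Acot1*, *Ppara*, *Angptl4* and *Pdk4* in every library by group (horizontal axis), males in blue and females in orange, with the group mean and SD in black. On the deposited scale induced hearts lie below all controls for *Acadm*, *Hadha* and *Acot1*, whereas *Ppara* and *Pdk4* overlap in several groups and *Angptl4* lies higher.

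The receptors and coactivators did not change alike. Of these 9 genes, 6, 3 and 4 were lower in males and 3, 6 and 3 in females, with none called higher. Beside these counts, 14.6%, 8.1% and 10.9% of all genes were lower in males and 13.1%, 14.5% and 21% in females. *Ppara* (ENSMUSG00000022383, chr15:85618656-85687067 on the plus strand) encodes the receptor that responds to fatty acids. In males *Ppara* read 21.1, 41.5 and 37.3 CPM in controls, 19.5, 26.7, 20.7 and 32.1 CPM in uninduced hearts, 7.50, 7.61, 10.9 and 16.4 CPM at 1 week, 14.8, 10.9, 29.7 and 33.2 CPM at 3 weeks, and 10.6, 18.6 and 16.3 CPM at 6 weeks. At 1 and 6 weeks every male library lay below all controls and all uninduced hearts, and at 3 weeks the 4 libraries split into 2 low values and 2 within the control range. For *Ppara* in males, log2 fold changes against control were -1.62 at 1 week (SE 0.34, adjusted p = 0.0013), -0.66 at 3 weeks (SE 0.34, adjusted p = 0.19) and -1.09 at 6 weeks (SE 0.37, adjusted p = 0.033). In females *Ppara* read 14.5, 22.7, 16.3 and 11.9 CPM in controls, 12.5, 15.7, 5.73 and 27.7 CPM in uninduced hearts, 12.8, 14.3, 14.7 and 8.20 CPM at 1 week, 11.4, 6.46, 4.67 and 9.96 CPM at 3 weeks, and 7.25, 6.87, 11.3 and 9.90 CPM at 6 weeks. The female 1-week libraries overlapped with control, and those at 3 and 6 weeks lay below it. For *Ppara* in females, log2 fold changes against control were -0.37 at 1 week (SE 0.34, adjusted p = 0.46), -1.003 at 3 weeks (SE 0.34, adjusted p = 0.03) and -0.84 at 6 weeks (SE 0.34, adjusted p = 0.053). The call at 6 weeks in males was lost without control replicate 3 or 4 or 6-week replicate 1, that at 3 weeks in females without any of 4 libraries, and edgeR and DESeq2 also called 6 weeks in females.

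*Ppargc1a* (ENSMUSG00000029167, chr5:51611592-51725068 on the minus strand) encodes PGC-1α, a coactivator that drives mitochondrial genes. Male *Ppargc1a* read 82.5, 93.01 and 71.4 CPM in controls, 59.3, 90.4, 53.8 and 65.7 CPM in uninduced hearts, 42.5, 35.7, 34.05 and 46.7 CPM at 1 week, 59.9, 34.99, 136 and 94.8 CPM at 3 weeks, and 33.02, 61.5 and 60.2 CPM at 6 weeks. Males at 1 week lay below every control and uninduced heart, whereas the 3-week hearts ran from below to above the controls. The male log2 fold changes of *Ppargc1a* were -1.04 at 1 week (SE 0.32, adjusted p = 0.016), -0.18 at 3 weeks (SE 0.32, adjusted p = 0.75) and -0.71 at 6 weeks (SE 0.34, adjusted p = 0.13). Female *Ppargc1a* read 238, 146, 71.6 and 58.8 CPM in controls, 63.9, 71.9, 23.3 and 91.6 CPM in uninduced hearts, 44.5, 75.1, 78.3 and 42.9 CPM at 1 week, 41.3, 39.03, 39.2 and 56.98 CPM at 3 weeks, and 116, 59.2, 32.8 and 33.7 CPM at 6 weeks. Female controls spanned 58.8 to 238 CPM, and only the 3-week group lay wholly below them. Against control the female hearts showed changes in *Ppargc1a* of -0.92 at 1 week (SE 0.44, adjusted p = 0.13), -1.33 at 3 weeks (SE 0.44, adjusted p = 0.027) and -1.06 at 6 weeks (SE 0.44, adjusted p = 0.06). Leaving out female control replicate 1, the highest, took the 3-week call away (-0.96). *Ppargc1b*, its relative, was lower in all 3 male comparisons (-0.73, -0.64 and -0.82) and not called in females (-0.32, -0.10 and -0.45).

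*Esrra* (ENSMUSG00000024955, chr19:6888338-6899336 on the minus strand) encodes estrogen-related receptor alpha and was called in none of the 6 comparisons. In males *Esrra* read 145, 129 and 127 CPM in controls, 125, 130.3, 144 and 133 CPM in uninduced hearts, 90.2, 116, 105 and 177 CPM at 1 week, 124, 101, 116 and 115 CPM at 3 weeks, and 115, 108 and 105.6 CPM at 6 weeks. Replicate 4 at 1 week (177 CPM) stood above every control, and males at 3 and 6 weeks lay below both reference groups. Against control the male hearts showed changes in *Esrra* of -0.17 at 1 week (SE 0.15, adjusted p = 0.41), -0.23 at 3 weeks (SE 0.15, adjusted p = 0.32) and -0.29 at 6 weeks (SE 0.17, adjusted p = 0.21). In females *Esrra* read 113, 135, 75.1 and 96.6 CPM in controls, 116, 125, 97.2 and 137 CPM in uninduced hearts, 103, 99.9, 90.5 and 71.99 CPM at 1 week, 102, 124, 96.5 and 102 CPM at 3 weeks, and 103, 110.3, 84.8 and 124 CPM at 6 weeks. All female groups overlapped. The corresponding female values of *Esrra* were -0.18 at 1 week (SE 0.16, adjusted p = 0.44), 0.04 at 3 weeks (SE 0.16, adjusted p = 0.87) and 0.03 at 6 weeks (SE 0.16, adjusted p = 0.91). Without replicate 4 at 1 week the male value was -0.37 and called, and total-read scaling called *Esrra* higher in females at 3 and 6 weeks (0.40 and 0.42). *Esrrb* (from -0.90 to -0.59) was lower in all 6 comparisons and *Esrrg* (from -0.70 to -0.28) in 4.

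*Pparg*, best known from fat cells, was lower in females at each week (-0.63, -1.19 and -0.81) and had male values of -0.18, 0.09 and -0.18. Female controls read 9.39 to 14.5 CPM and the 3-week hearts 4.55 to 5.73 CPM. *Ppard* was called lower in all 3 female comparisons (-0.28, -0.39 and -0.34), a direction that turned at 1 and 6 weeks under total-read and cardiomyocyte-marker scaling, and *Rxra* at 1 week in males (-0.52). Of 7 adipose tissue markers, *Adipoq*, *Plin1*, *Lep*, *Cidec* and *Retn* have no row in either table and the rest summed to at most 13.9 CPM in any library. The 1 adipose marker tested in females was called higher than control at 1 week (2.65) and in uninduced hearts (1.79). *Ucp1* and *Elovl3*, markers of brown fat, have no row either. *Cidea*, the other brown fat marker checked, has a row and read 14.6 to 29.3 CPM over all groups.

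*Angptl4* (ENSMUSG00000002289, chr17:33992724-34000804 on the minus strand), a secreted inhibitor of lipoprotein lipase and a widely used PPAR target, went the other way, and its values are given in full because they were seen to be high. Male *Angptl4* read 5.73, 3.14 and 2.61 CPM in controls, 7.82, 5.22, 8.37 and 4.61 CPM in uninduced hearts, 25.98, 37.5, 31.7 and 32.3 CPM at 1 week, 21.4, 30.5, 6.28 and 9.75 CPM at 3 weeks, and 43.7, 17.9 and 14.5 CPM at 6 weeks. Every induced male library lay above all controls, and those at 1 and 6 weeks above all uninduced hearts. For *Angptl4* in males, log2 fold changes against control were 2.96 at 1 week (SE 0.42, adjusted p = 2.5e-05), 1.83 at 3 weeks (SE 0.42, adjusted p = 0.0031) and 2.48 at 6 weeks (SE 0.45, adjusted p = 0.00034). Female *Angptl4* read 4.61, 5.32, 11.7 and 7.15 CPM in controls, 4.33, 18.7, 23.5 and 6.35 CPM in uninduced hearts, 20.2, 14.3, 19.9 and 18.7 CPM at 1 week, 14.5, 10.1, 16.2 and 14.1 CPM at 3 weeks, and 45.7, 47.9, 38.2 and 20.6 CPM at 6 weeks. Females at 1 and 6 weeks lay above all controls, while 2 uninduced hearts (18.7 and 23.5 CPM) also did. For *Angptl4* in females, log2 fold changes against control were 1.36 at 1 week (SE 0.39, adjusted p = 0.012), 0.96 at 3 weeks (SE 0.39, adjusted p = 0.069) and 2.34 at 6 weeks (SE 0.39, adjusted p = 7.4e-05). Values stayed above 0 on all 4 scales, from 0.96 to 3.29, and at 3 weeks in females the rise was called without control replicate 3 (1.204), by the fit of the 2 groups alone, and on the cardiomyocyte-marker and total-read scales.

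*Pdk4* (ENSMUSG00000019577, chr6:5483097-5496339 on the minus strand), a kinase that shuts off pyruvate dehydrogenase and so spares glucose, was also chosen for its full values after they were seen. Male *Pdk4* read 216, 513 and 529.8 CPM in controls, 593, 790.1, 572 and 495 CPM in uninduced hearts, 390.5, 238, 256 and 712 CPM at 1 week, 468, 351, 251 and 380.4 CPM at 3 weeks, and 539, 574 and 249 CPM at 6 weeks. No induced male group stood apart from control. The male log2 fold changes of *Pdk4* were -0.11 at 1 week (SE 0.36, adjusted p = 0.85), -0.14 at 3 weeks (SE 0.36, adjusted p = 0.84) and 0.13 at 6 weeks (SE 0.39, adjusted p = 0.84). Female *Pdk4* read 490.3, 332, 597 and 455 CPM in controls, 279, 625, 483 and 483 CPM in uninduced hearts, 265, 179, 405 and 228 CPM at 1 week, 242, 63.7, 60.9 and 80.7 CPM at 3 weeks, and 602, 201, 372 and 505 CPM at 6 weeks. At 3 weeks all 4 females lay below every control, and 3 of them, at 60.9 to 80.7 CPM, lay far below. Against control the female hearts showed changes in *Pdk4* of -0.83 at 1 week (SE 0.38, adjusted p = 0.12), -2.29 at 3 weeks (SE 0.38, adjusted p = 0.00011) and -0.24 at 6 weeks (SE 0.38, adjusted p = 0.64). By 6 weeks the female libraries ran from 201 to 602 CPM and overlapped with the controls (332 to 597 CPM).

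*Ucp3* (ENSMUSG00000032942, chr7:100122136-100135976 on the plus strand), a mitochondrial carrier induced by fatty acids, is the remaining gene named after its values were seen. Male *Ucp3* read 27.4, 50.1 and 40.98 CPM in controls, 81.7, 78.03, 57.7 and 42.6 CPM in uninduced hearts, 27.01, 54.8, 45.4 and 48.8 CPM at 1 week, 36.4, 43.5, 16.04 and 36.7 CPM at 3 weeks, and 42.004, 40.1 and 31.3 CPM at 6 weeks. Male induced groups overlapped with control. Against control the male hearts showed changes in *Ucp3* of 0.15 at 1 week (SE 0.30, adjusted p = 0.74), -0.30 at 3 weeks (SE 0.30, adjusted p = 0.55) and -0.03 at 6 weeks (SE 0.32, adjusted p = 0.96). Female *Ucp3* read 45.1, 51.7, 93.3 and 80.5 CPM in controls, 44.4, 60.001, 29.05 and 45.1 CPM in uninduced hearts, 23.3, 13.3, 34.2 and 31.2 CPM at 1 week, 37.2, 23.2, 17.4 and 17.1 CPM at 3 weeks, and 49.3, 14.005, 32.2 and 59.6 CPM at 6 weeks. Females at 1 and 3 weeks lay below all controls. The corresponding female values of *Ucp3* were -1.41 at 1 week (SE 0.38, adjusted p = 0.0078), -1.50 at 3 weeks (SE 0.38, adjusted p = 0.0046) and -0.92 at 6 weeks (SE 0.38, adjusted p = 0.056). Of the other PPAR targets, *Plin5*, which tethers lipid droplets to mitochondria, was lower in females at each week (-0.73, -0.76 and -0.53) and *Mlycd*, which removes malonyl-CoA, at 1 and 3 weeks (-0.54 and -0.52), with neither called in males (from -0.37 to -0.13 and from -0.37 to -0.16). *Ucp2* was higher at 6 weeks in males (0.87, adjusted p = 0.038 in limma), where replicate 4 read 210.3 CPM and the controls 47.3 to 91.9 CPM, and that call was lost without replicate 4 (0.46), 6-week replicate 3, control replicate 1 or control replicate 3, and in the fit of the 2 groups alone.

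**Figure D4:**
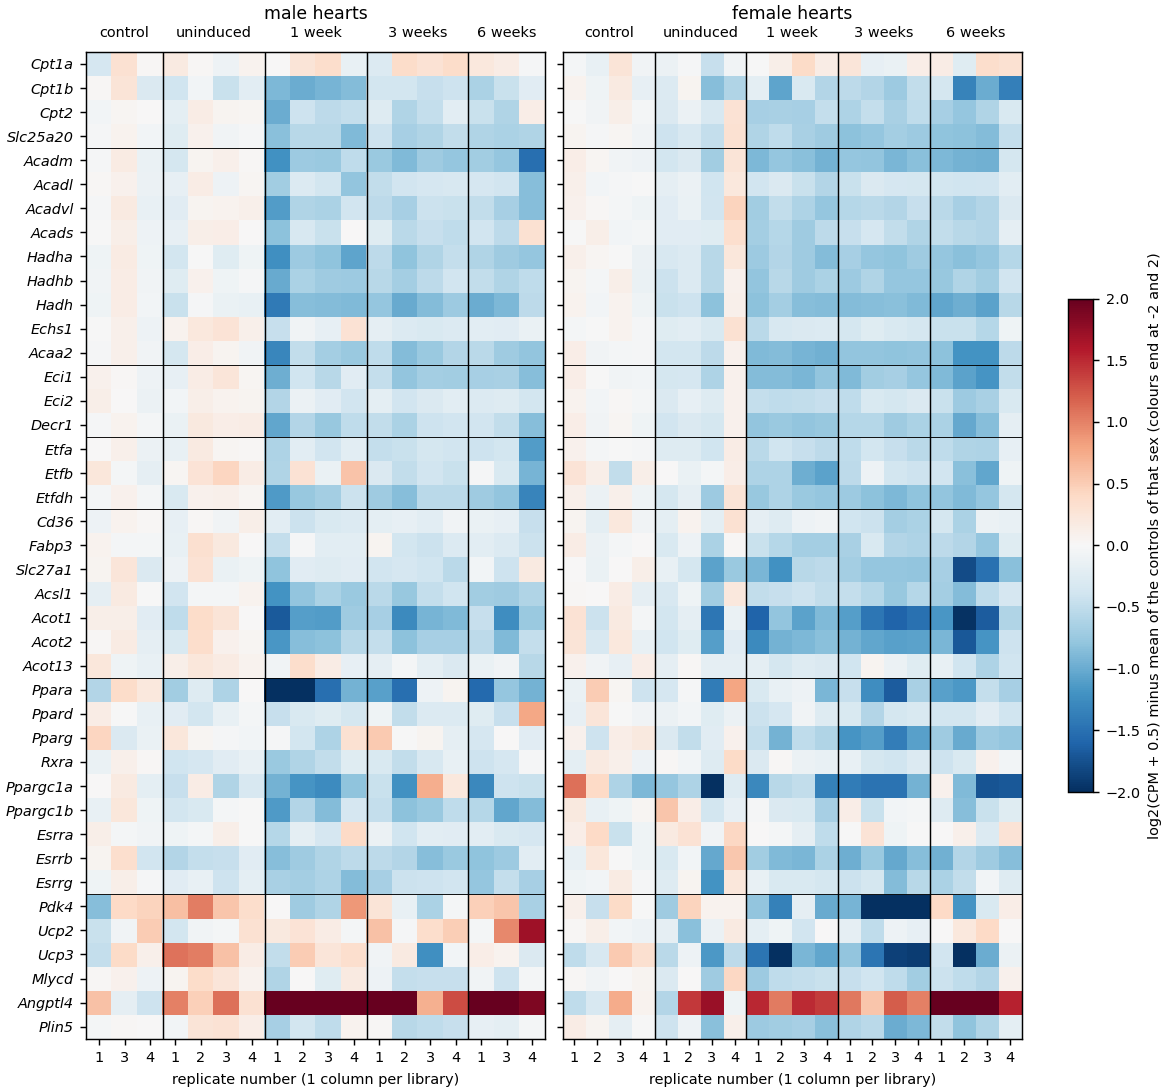
Log2(CPM + 0.5) of each of the 41 genes (rows, in order of role) in each library (columns, by group and replicate) minus the mean of the controls of that sex, male hearts left and female hearts right, on the deposited scale; blue is lower and red higher than control, and colours end at -2 and 2. Induced columns are mostly blue on this scale except in rows such as *Cpt1a* and *Angptl4* and, in males, *Ucp2* and *Ucp3*. Rows such as *Pdk4* in males and *Esrra* in females are mixed. The uninduced female columns of replicates 3 and 4 differ from each other.

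In uninduced CM-Il11-Tg hearts none of the 41 genes was called against control by limma, edgeR or DESeq2 in either sex. At an unadjusted p under 0.05 limma had 5 of the 41 in males and 7 in females. Beside these, 1789 of all 16931 genes in males and 2605 of all 16956 in females reached that unadjusted p. At an adjusted p under 0.05, 0.0354% of all genes were lower and 0.561% higher in males, and 0.466% lower and 2.41% higher in females. The median of the 41 was -0.01 in males and -0.23 in females. Female uninduced libraries spread widely. The median difference of the 41 genes from the control mean was -0.29, -0.13, -0.47 and 0.11 for replicates 1 to 4. Without replicate 4, the highest of them, the test called 6 of the 41, including *Acadm* (-0.45) and *Hadh* (-0.56). The share of all genes called in that fit is not given here, so these 6 cannot be set against it.

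Against uninduced hearts, which share the transgene but received no tamoxifen, the fall was present in both sexes on the deposited scale. The drug and the induction of *Il11* cannot be told apart in this comparison. Male hearts had 21, 20 and 20 of the 41 genes lower at 1, 3 and 6 weeks (medians -0.53, -0.43 and -0.41), beside 6.66%, 5.46% and 7.4% of all genes, and 1, 0 and 2 higher, beside 12.1%, 10.6% and 13%. Female hearts had 13, 17 and 17 lower (medians -0.38, -0.39 and -0.37), beside 4.26%, 6.15% and 9.08%, and 0, 0 and 1 higher, beside 8.32%, 10.6% and 13.7%. The comparisons with control and with uninduced hearts share the induced libraries and are not independent. *Acadm* was lower in all 6 of these comparisons too, by -0.75, -0.74 and -0.95 in males and by -0.59, -0.55 and -0.51 in females. *Angptl4* was higher than in uninduced hearts at 1 and 6 weeks in males (2.24 and 1.76) and at 6 weeks in females (1.73). The female counts rested on single libraries, and at 6 weeks ran from 8 without 6-week replicate 2 to 29 without uninduced replicate 3, which also took the counts at 1 and 3 weeks to 23 and 28. At 6 weeks under cardiomyocyte-marker scaling 2 of the 41 were lower in males and none in females, beside 0.83% and 1.32% of all genes. The median of the 41 turned to 0.05 in males, where that of all genes was 0.405. In females it was -0.06, where that of all genes was 0.25. On the deposited scale limma had 30 of the 41 at an unadjusted p under 0.05 in females, beside 6066 of all 16956 genes.

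Between the weeks no gene of the 41 was called by limma or edgeR. Of all genes 0.0177% differed between 3 and 1 weeks in males, 0.165% between 6 and 1 weeks and 0% between 6 and 3 weeks, and in females 0.218%, 1.03% and 0% did. At an unadjusted p under 0.05 limma had 8, 3 and 0 of the 41 in males and 4, 2 and 4 in females. Beside these, 2710, 2615 and 1072 of all 16931 genes in males and 1699, 2137 and 2572 of all 16956 in females reached that unadjusted p. DESeq2 called 2, 1 and 0 of the 41 in males and 1, 0 and 1 in females. In males DESeq2 called *Cpt1b* higher than at 1 week both at 3 weeks (0.55) and at 6 weeks (0.52), and *Ppargc1a* higher at 3 weeks (1.04), and in females *Pparg* lower at 3 weeks (-0.61) and *Pdk4* higher at 6 than at 3 weeks (1.92). In limma the *Pdk4* difference between 6 and 3 weeks in females was 2.05 (adjusted p = 0.079), and without 3-week replicate 1, the highest of its group, it was 2.51 and called.

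The male change minus the female change was not called for any of the 41 genes at 1, 3 or 6 weeks, by limma on reads of both tables brought to a single scale or by edgeR. Over all genes 0% were called at 1 week, 0% at 3 weeks and 0% at 6 weeks. At an unadjusted p under 0.05 limma had 6, 4 and 2 of the 41, beside 2980, 715 and 2997 of all 16994 genes. The 7 genes *Acads*, *Echs1*, *Fabp3*, *Slc27a1*, *Ppard*, *Pparg* and *Plin5* were called lower in all 3 female and no male comparisons, and *Ppargc1b* in all 3 male and no female comparisons, but none of these differences passed the test of the difference itself. The male minus female difference was 1.24 for *Pparg* at 3 weeks (SE 0.26, limma adjusted p = 0.18), 1.05 for *Slc27a1* at 6 weeks (SE 0.30, limma adjusted p = 0.14) and 2.11 for *Pdk4* at 3 weeks (SE 0.57, limma adjusted p = 0.49).

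Among the 41 genes the spread within groups was unequal. The pooled SD of log2 values within groups had a median of 0.22 in 18 male and 0.21 in 20 female libraries. It was largest for *Angptl4*, *Pdk4*, *Ppara*, *Ppargc1a* and *Ucp3*, between 0.47 and 0.72, and smallest for *Cd36* in males (0.11) and *Eci2* in females (0.13). As a description only, deviations of *Pdk4* and *Ucp3* from their group means correlated at r = 0.46 over the 18 male and 0.73 over the 20 female libraries, those of *Ppara* and *Ppargc1a* at 0.74 and 0.43, and those of *Pdk4* and *Angptl4* at 0.094 and 0.27. Each such pair of values comes from the same library and shares its depth and scale.

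Neighbouring pathways are given by lists whose members were also chosen with earlier results known. Beside their counts, 14.6%, 8.1% and 10.9% of all genes were lower at 1, 3 and 6 weeks in males and 13.1%, 14.5% and 21% in females, and 18.9%, 13.2% and 16.2% were higher in males and 15.3%, 16.8% and 21.7% in females. Directions below are on the deposited scale, and each list is followed by its counts under cardiomyocyte-marker scaling. On that scale 5.29%, 1.89% and 2.03% of all genes were lower in males and 2.16%, 3.23% and 5.01% in females. Marker scaling moved all genes up (medians 0.19 to 0.37), so fewer lower and more higher calls on it are not particular to any list. The share of all genes higher on it is not given here. Of the ketone body and branched-chain acyl-CoA genes, 8, 7 and 7 of 12 were lower in males and 9 of 12 at each week in females. With the markers as the scale 4, 2 and 2 were lower in males and 1 at each week in females. *Dbt*, of the branched-chain keto acid dehydrogenase, was lower in all 6 (from -0.90 to -0.50). *Bdh1*, a ketone body dehydrogenase, was higher in males at 1 and 3 weeks (0.89 and 1.22) and not called at 6 weeks (0.81). Its female values were -0.31, -0.41 and 0.22, none of them called.

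Peroxisomal oxidation shortens very long chains. Of 18 such genes tested in males 7, 4 and 5 were lower, and of 17 in females 6, 5 and 8. Under marker scaling 4, 0 and 1 were lower and 2, 2 and 3 higher in males, and 1 was lower at each week and 5, 1 and 3 higher in females. *Ech1*, which isomerises dienoyl-CoA, was lower in 5 of 6 comparisons (from -1.24 to -0.32), *Crat*, carnitine acetyltransferase, in 5 (from -0.83 to -0.40) and *Abcd3*, a transporter of the peroxisomal membrane, in 6 (from -0.74 to -0.50). On another scale *Ech1* and *Crat* reached as high as 0.08 and 0.01.

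Lipid droplet genes moved in both directions, with 7, 3 and 3 of 20 lower and 3, 1 and 3 higher in males, and 7, 7 and 9 lower and 1, 0 and 1 higher in females. Under marker scaling 1, 0 and 0 were lower and 4, 3 and 6 higher in males, and 0, 3 and 2 were lower and 3, 3 and 4 higher in females. *Plin2*, the droplet coat protein, was higher in 5 of 6 comparisons (from 0.52 to 1.03), and *Dgat2*, which makes triglyceride, lower in 5 (from -0.98 to -0.48). *Plin4* was lower in 4 (from -1.20 to -0.20), and on another scale it reached as high as 0.21. Among 15 genes of capillary uptake and other fatty acid transport, 6, 7 and 6 were lower and 3, 3 and 1 higher in males, and 6 were lower and 3 higher at each week in females. Marker scaling gave 4, 1 and 2 lower and 3 higher at each week in males, and 1, 3 and 3 lower and 7, 4 and 6 higher in females. *Gpihbp1*, which anchors lipoprotein lipase to capillaries, was lower in all 6 (from -1.30 to -0.52). *Tcf15*, a transcription factor of heart capillaries, was lower in 4 (from -1.32 to -0.36) and the synthetase gene *Acsl6* in 5 (from -1.28 to -0.52). Beside these, 3 to 7 of 9 endothelial markers were lower, and their part in the falls was not tested.

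Of the fatty acid synthesis and malonyl-CoA genes, 2, 2 and 1 of 13 were lower and 2, 1 and 3 higher in males, and 4, 2 and 4 were lower and 2, 2 and 3 higher in females. Under marker scaling 2, 0 and 0 were lower and 2, 3 and 4 higher in males, and 1 was lower at each week and 7, 3 and 6 higher in females. Under total-read scaling the female counts were 1, 1 and 2 lower and 7, 4 and 8 higher. *Fasn*, fatty acid synthase, was higher in 5 comparisons (from 0.60 to 0.95), whereas *Acacb*, which makes the malonyl-CoA that inhibits the shuttle, was lower in 6 (from -0.86 to -0.52) and *Acsm5*, a synthetase for medium chains, in 5 (from -1.22 to -0.72). Of 21 further co-regulators of PPAR and estrogen-related receptors, 10, 5 and 7 were lower in males and 5, 6 and 9 in females, and a single gene, *Hif1a*, was higher at each week (from 0.61 to 1.13). Under marker scaling 5, 0 and 0 were lower and 1, 2 and 2 higher in males, and 1, 2 and 2 were lower and 6, 2 and 7 higher in females. *Perm1*, a muscle partner of PGC-1α, was lower in all 6 (from -1.10 to -0.69), and *Klf15*, which supports fatty acid use, in the 3 female comparisons (-1.05, -1.04 and -1.28). Male values of *Klf15* lay between -0.60 and -0.08 and were not called. On another scale *Klf15* reached as high as 0.31.

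Glucose use genes went both ways as well. In males 7, 6 and 9 of 26 were lower and 6, 4 and 4 higher, and in females 9, 14 and 15 were lower and 4, 3 and 5 higher. Under marker scaling 2, 1 and 2 were lower and 8, 7 and 8 higher in males, and 0, 2 and 1 were lower and 11, 4 and 7 higher in females. That scale moves all genes up, so this turn cannot be read as a result about glucose use. *Pdk3*, another pyruvate dehydrogenase kinase, was higher in all 6 (from 0.68 to 1.23), and *Eno3*, the muscle enolase (from -1.08 to -0.53), and *Pdhb*, a pyruvate dehydrogenase subunit (from -0.82 to -0.45), lower in all 6. Of 87 subunits of the respiratory chain and ATP synthase, 6, 21 and 14 were lower in males (medians -0.03, -0.33 and -0.19) and 80, 62 and 75 in females (medians -0.51, -0.42 and -0.48). *Cox7a1*, the heart and muscle form of a cytochrome oxidase subunit, was lower in 5 comparisons (from -1.20 to -0.43), *Ndufs1* in 6 (from -0.79 to -0.35), and *Ndufa4l2* was higher in 4 (from 0.24 to 0.999). On another scale *Ndufs1* reached as high as 0.099. Under cardiomyocyte-marker scaling at most 1 of the 87 was lower in any comparison, and 15, 1 and 10 were higher in males and 1, 0 and 2 in females.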

How the data were processed

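The 41 genes and all gene lists were chosen with earlier results of these data known. Per the study's methods, reads were aligned to GRCm39 with STAR 2.7.10a, counted per gene with featureCounts (Rsubread 2.10.4) and normalised with edgeR 3.38.1; the strand setting of the counting is not given in the sources used here. The authors deposited 1 table for each sex of CPM, a signal per gene scaled for library size. Dividing each column by its smallest step gave whole reads in 100% of values within 0.001. Genes with a CPM of at least 0.5 in at least 3 libraries were kept (16931 in males, 16956 in females). All libraries of a sex entered 1 fit of limma 3.58.1 (R 4.3.3, with trend) on log2(CPM + 0.5), so fold changes of low genes are understated, and p-values were adjusted by Benjamini-Hochberg over all genes tested. The test of the sexes used whole reads of both tables on a common scale. P-values weigh each difference between group means against the spread between the samples within groups. Values of every library were given for the 8 genes with the largest mean fall among those called in all 6 comparisons with control (no gene rose in all 6), for *Ppara*, *Ppargc1a*, *Esrra*, *Cpt1b* and *Acadm*, and for 3 genes chosen after their values were seen. Of each further list, up to 3 genes with the largest called change were named, and 1 such gene is not reported here. Alternatives were other pseudocounts (0.1 and 2), filters, scalings, edgeR 4.0.16 and DESeq2 1.42.0 on whole reads, a replicate block, the 2 groups alone and each library left out. Scripts were tested on simulated data. Promoters were read from GRCm39 with pysam 0.24.0.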

Additional observations from a re-analysis of the deposited data

Results flagged for a closer look

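Among the genes whose values are given in full, 120 groups of 4 libraries were searched for a library far from the other 3 by Dixon's criterion, which chance gives in about 1 of 20 groups, and 5 were found where 6 would be expected. *Hadh* read 165.8 CPM in male replicate 1 at 1 week, below 240.6 to 244.8 CPM in the rest. In female replicate 4 at 6 weeks *Hadh* read 283.8 CPM, above 198.1 to 212.2 CPM, and *Acadm* read 613.6 CPM, above 400.1 to 420.2 CPM. *Ppargc1a* read 56.98 CPM in female replicate 4 at 3 weeks, above 39.03 to 41.26 CPM. *Pdk4* read 241.6 CPM in female replicate 1 at 3 weeks, above 60.91 to 80.73 CPM. Outside the comparisons, *Angptl4* read 22.15 CPM in the male library titled as a control and described as 6 weeks, above the 2.61 to 5.73 CPM of the male controls.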

How the results depend on the processing

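Pseudocounts of 0.1 and 2, both other filters and median-of-ratios scaling kept every count of the 41 genes within 1.5 times. Scaling to total reads, added after the data were seen, gave 10, 3 and 8 lower in males against control at 1, 3 and 6 weeks and 15, 15 and 11 in females, with 3 higher at 1 week in males and 2, 3 and 4 in females, and against uninduced hearts 8 at 3 weeks in males and 4, 2 and 2 in females. Scaling to cardiomyocyte markers gave 3 and 2 lower at 3 and 6 weeks in males and 6, 16 and 7 in females. It gave 2 higher at 3 weeks in males and 2, 1 and 4 in females. Against uninduced hearts it gave 2 and 2 lower at 3 and 6 weeks in males and 1, 2 and 0 in females. The shares of all genes lower than control on both scales stand with the counts above. Against uninduced hearts, total reads put 1.93% of all genes lower at 3 weeks in males and 1.15%, 1.76% and 2.38% in females. The markers put 0.77% and 0.83% lower at 3 and 6 weeks in males and 0.51%, 1.07% and 1.32% in females. A log2 fold change of at least 1 left 4, 0 and 1 lower in males, with 1 higher at 6 weeks, and 2, 7 and 4 in females. Fits of the 2 groups alone gave 1 higher at 6 weeks in males and at 3 weeks in females, and 5, 5 and 2 lower than in uninduced females. Between weeks, DESeq2 called 2 (3 against 1 week) and 1 (6 against 1 week) in males, and 1 each for 3 against 1 and 6 against 3 weeks in females. The cause was not tested.

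These values turned above 0. Under total reads: *Eci2* 0.0323 at 1 week in males, *Ppard* 0.0676 at 1 week, *Echs1* 0.042 at 3 weeks, and *Acadl* 0.0588, *Echs1* 0.0096, *Acot13* 0.0125 and *Ppard* 0.051 at 6 weeks in females. Under cardiomyocyte markers: *Acadl* 0.0256, *Echs1* 0.0946 and *Ppard* 0.1685 at 1 week and *Acadl* 0.0871, *Echs1* 0.0378, *Acot13* 0.0406 and *Ppard* 0.0788 at 6 weeks in females, and against uninduced hearts *Eci2* 0.0622 at 3 weeks and 0.1114 at 6 weeks, *Esrrg* 0.0559, *Acot13* 0.0644 and the median of the 41 (0.0507) at 6 weeks in males and *Eci2* 0.0071 at 1 week in females.

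Leaving out 1 library at a time, lower counts against control at 3 weeks in males ran from 11 (without control replicate 3) to 18, and higher counts at 6 weeks in males from 1 to 2 and at 3 weeks in females from 0 to 1. Against uninduced hearts they ran from 13 (without uninduced replicate 2) to 20 at 3 weeks in males and from 9 to 23, 8 to 28 and 8 to 29 in females. Uninduced females had 0 to 6 called, and 0 to 1 was called for 6 against 1 week in males and for 3 against 1 and 6 against 3 weeks in females.

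Replicate numbers did not pair the libraries (mean correlation of deviations at the same number 0.013 in males and 0.025 in females). With the replicate number as a block, 23, 18 and 20 of the 41 were lower than control in males and 27, 32 and 30 in females, and 21, 20 and 19 lower than uninduced in males and 14, 18 and 19 in females, with 0 called between weeks, between sexes or in uninduced hearts.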

Other observations

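The 2 male libraries with contradictory labels entered no comparison. The library titled as a control and described as 6 weeks read 511 CPM of *Il11*, 451 CPM of *Acadm*, 669 CPM of *Hadha*, 248 CPM of *Hadh*, 13.7 CPM of *Acot1*, 17.8 CPM of *Ppara* and 51.6 CPM of *Esrra*. The other read 0.597 CPM of *Il11*, 940 CPM of *Acadm*, 1210 CPM of *Hadha*, 471 CPM of *Hadh*, 29.1 CPM of *Acot1*, 39.6 CPM of *Ppara* and 144 CPM of *Esrra*.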
